A study of Mus musculus with 12 samples.

Results

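Hepatic genes of the 3 large families of conjugating enzymes were followed in mouse liver: the UDP-glucuronosyltransferases (Ugt), the cytosolic sulfotransferases (Sult) and the cytosolic glutathione transferases (Gst). Members were taken by symbol, as probe sets with 1 gene symbol in the platform annotation that starts with Ugt, Sult or Gst. They came to 51 of the 22180 genes measured: 11 Ugt, 21 Sult and 19 Gst genes, each with 1 probe set. Another 9 probe sets carry several symbols with such a name among them, which includes the Ugt1a locus and Gsta1 with Gsta2, and were not analysed here. RNA was measured on 12 Affymetrix arrays, 1 per male C57BL6 mouse liver sample. All mice were fed ad libitum for 12 weeks, from 6 to 18 weeks of age. Low-fat control mice ate a diet with 10% of energy from fat, and high-fat control mice a diet with 45%. Low-fat MSX and high-fat MSX mice ate the same diets with 0.5% (w/w) of MSX, a food-grade maple syrup extract enriched in phenols. Each of the 4 groups had 3 arrays, labelled as biological replicates.

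Phase II conjugation makes drugs, food phenols, steroids and bile pigments water-soluble, so that bile and urine can carry them away. Ugt enzymes sit in the endoplasmic reticulum and add glucuronic acid from UDP-glucuronic acid, Sult enzymes add sulfate from the donor PAPS, and Gst enzymes add glutathione to electrophiles. In mouse liver, growth hormone and sex hormones set the level of several members, and the stress factor NRF2 and the receptors AHR, CAR and PXR are known to induce others. Plant phenols such as those of maple syrup are themselves substrates of Ugt and Sult enzymes.

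Values are log2 levels as deposited, so that a difference of 1 is a doubling. Levels of different genes come from different probes and are not compared. A gene passed the test where limma gave a Benjamini-Hochberg adjusted p under 0.05 over all 22180 genes. Array medians lay between 4.68 and 4.75. Markers of hepatocytes were present throughout, and the mean level of the 10 markers lay between 12.5 and 12.7 in all arrays. Of the 51 members, 21 had a mean below the median of all probe sets, where a low level and no expression cannot be told apart. The samples are bulk liver, so that fewer cells of a type and less RNA per cell cannot be told apart.

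No member passed the test for any of 7 comparisons. The lowest adjusted p of a member was 0.113 for MSX on the low-fat diet, 0.396 for high-fat against low-fat control and 0.525 for MSX on the high-fat diet. Few genes passed anywhere: the share of all genes called was 0.158%, 0.018% and 0.0361% in those 3 comparisons. It was 0% for the diet effect with extract and 0% for the difference of both extract effects, 0.261% for the average extract effect over both diets and 0.0225% for the average diet effect.

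At an unadjusted limma p under 0.05, members were called more often than genes at large in the 3 main comparisons, and some genes led in more than 1. Ugt2b1, Sult2a8 and Ugt2a3 were among the 5 members of lowest p for diet (lower) and for MSX on the high-fat diet (higher). Gstm2 and Gstm3 were among these for diet and for MSX on the low-fat diet (higher in both). High-fat against low-fat control called 9 of 51 members (17.6%, 3 higher and 6 lower), against 6.78% of all genes (3.44% higher and 3.34% lower). MSX on the high-fat diet called 8 (15.7%), all higher, against 6.99% of all genes (3.48% higher and 3.51% lower). MSX on the low-fat diet called 8 (5 higher and 3 lower), against 8.05% (4.03% in either direction). Averaged over both diets, MSX called 11 (9 higher and 2 lower), against 9.66% (5.2% higher and 4.46% lower). The average diet effect called 5 (1 higher and 4 lower), against 5.94% (2.88% and 3.06%). High-fat MSX against low-fat MSX called 4 (1 higher and 3 lower), against 4.56% (2.39% and 2.18%), and the difference of both extract effects called 4 (2 higher and 2 lower), against 5.09% (2.67% and 2.43%). Among the 12794 genes above the median level, which hold 30 members, the background was 6.95%, 7.43% and 9.52% in the first 3 of these comparisons, and 7, 7 and 6 members were called. These shares describe the members. Many of them are neighbours within families of similar sequence, so that their values may not be independent.

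The first of these comparisons and the second share the 3 high-fat control arrays, and the first and the third share the 3 low-fat control arrays. A low value in the high-fat controls therefore enters the first and the second with opposite signs, and a low value in the low-fat controls enters the first and the third with the same sign. Leaving out high-fat control replicate 1 left 5 members at an unadjusted p under 0.05 for the diet effect and 4 for MSX on the high-fat diet. Without high-fat control replicate 3 the diet effect also left 5, and without high-fat MSX replicate 2 MSX on the high-fat diet left 3. On the low-fat diet, 5 were left without low-fat control replicate 2. The average extract count was 6 without low-fat MSX replicate 3 and 7 without high-fat control replicate 2. Counts also rose without some arrays. As each array was left out in turn, they ran from 5 to 10 for diet and 3 to 11 for MSX on the high-fat diet. They ran from 5 to 9 for MSX on the low-fat diet, 6 to 16 for the average extract effect and 2 to 7 for the average diet effect. Without low-fat MSX replicate 3 the difference of both extract effects called 11 members in place of 4, and without low-fat MSX replicate 1 it called 7. The average diet count of 5 became 2 when replicate 1 of the low-fat controls was left out. It became 3 when replicate 2 of these or replicate 1 of high-fat MSX was left out. With extract, the diet count of 4 became 2 without low-fat MSX replicate 2. Some high-fat controls also stood apart in markers of non-parenchymal cells. In high-fat control replicate 1 the median marker deviation was 0.84 above the 12-array mean for 10 stellate cell and matrix genes and 0.73 for 6 cholangiocyte genes. Over 11 Kupffer cell and macrophage genes it was 0.52 in high-fat control replicate 1 and −0.72 in replicate 3.

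**Figure D1:**
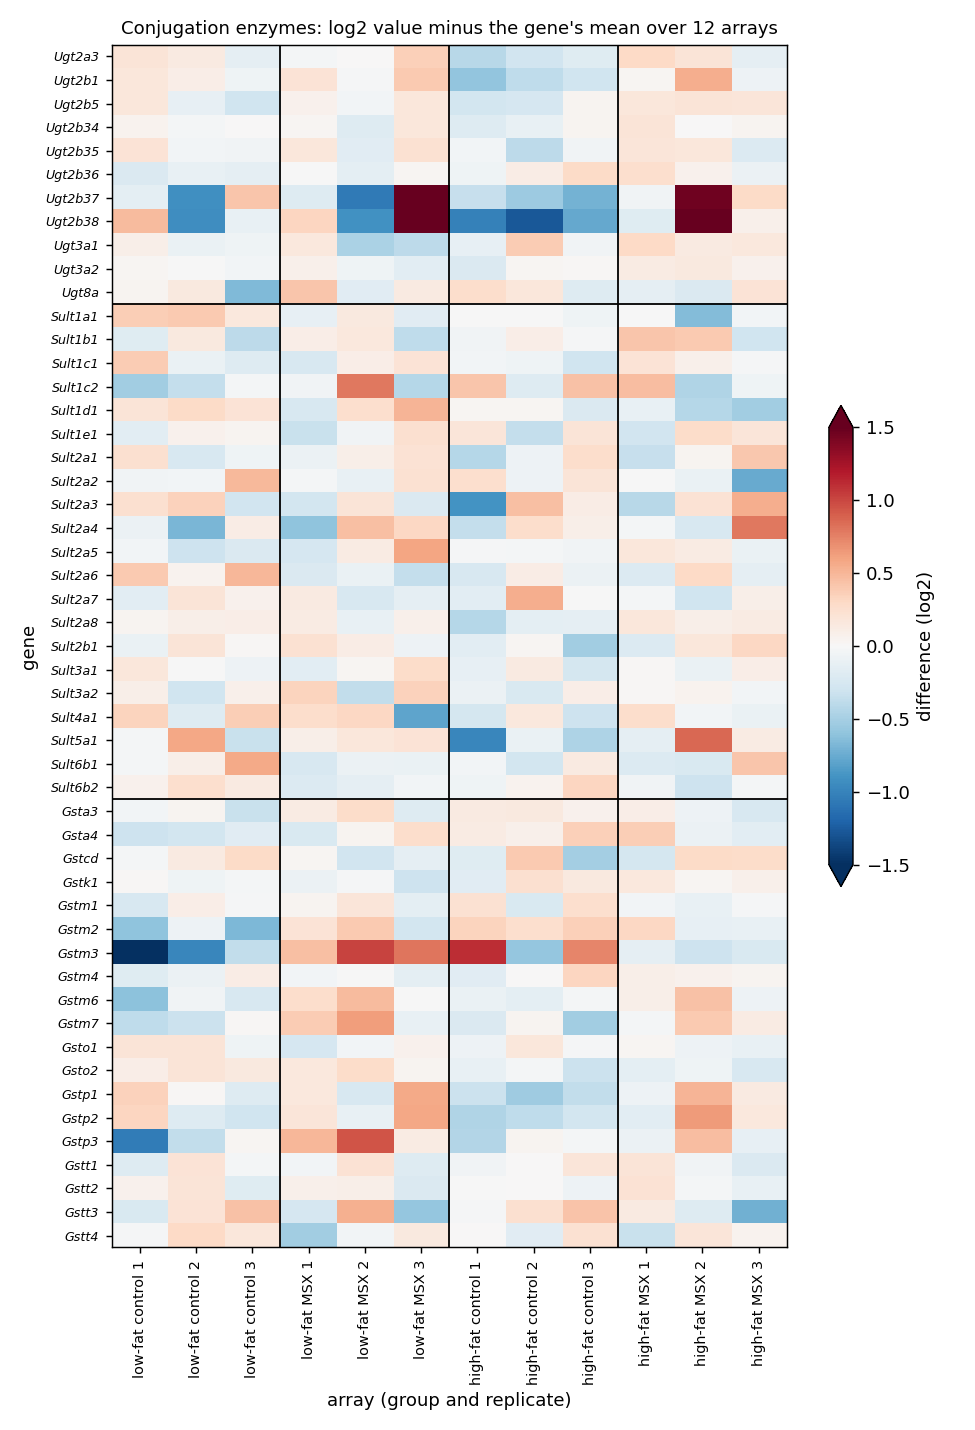
Level of each of the 51 members in each of the 12 arrays, as the difference from that gene's mean over the arrays on the log2 scale (colour), with genes in rows by family and arrays in columns by group. Differences past the ends of the colour scale are drawn at its ends. Gstm3 has its lowest group mean in the low-fat controls, and Ugt2b1, Ugt2b38 and Gstp1 have theirs in the high-fat controls, while no member passed the test.

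The sequences below are promoters, shown because the data turn on pairs of similar genes, Gstp1 with Gstp2 and Ugt2b37 with Ugt2b38, and on Gstp3, a neighbour of the first pair. Each is the 250 bases before the annotated start from RefSeq (build GRCm38.p6, minus strand), 5′ to 3′. Capitals mark matches, on either strand, to any of 5 motifs searched: TGACNNNGC and TGAGNNNGC, forms of the antioxidant response element bound by NRF2, TTCNNNGAA, the site of the growth hormone effector STAT5, GCGTG, the core site of AHR, and GTTAAT, a half-site of HNF1.
Gstp1: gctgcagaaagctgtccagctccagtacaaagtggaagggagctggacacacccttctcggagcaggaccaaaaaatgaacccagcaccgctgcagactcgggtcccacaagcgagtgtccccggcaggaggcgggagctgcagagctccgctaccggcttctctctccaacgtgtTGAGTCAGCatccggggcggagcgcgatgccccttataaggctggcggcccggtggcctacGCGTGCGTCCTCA
Gstp2: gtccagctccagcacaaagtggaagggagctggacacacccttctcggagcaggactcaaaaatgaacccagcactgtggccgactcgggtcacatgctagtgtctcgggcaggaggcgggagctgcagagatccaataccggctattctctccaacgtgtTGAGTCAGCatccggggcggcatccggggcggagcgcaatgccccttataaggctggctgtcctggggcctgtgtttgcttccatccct
Gstp3: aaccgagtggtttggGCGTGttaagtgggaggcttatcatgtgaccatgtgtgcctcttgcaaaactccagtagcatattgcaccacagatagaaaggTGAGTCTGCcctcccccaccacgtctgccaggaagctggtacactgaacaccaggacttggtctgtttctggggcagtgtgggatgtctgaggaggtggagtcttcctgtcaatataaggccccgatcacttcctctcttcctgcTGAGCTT
Ugt2b37: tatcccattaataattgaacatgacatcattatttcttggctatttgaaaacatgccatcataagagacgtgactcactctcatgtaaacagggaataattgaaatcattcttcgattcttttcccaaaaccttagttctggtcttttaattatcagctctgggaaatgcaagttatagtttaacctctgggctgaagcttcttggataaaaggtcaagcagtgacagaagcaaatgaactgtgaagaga
Ugt2b38: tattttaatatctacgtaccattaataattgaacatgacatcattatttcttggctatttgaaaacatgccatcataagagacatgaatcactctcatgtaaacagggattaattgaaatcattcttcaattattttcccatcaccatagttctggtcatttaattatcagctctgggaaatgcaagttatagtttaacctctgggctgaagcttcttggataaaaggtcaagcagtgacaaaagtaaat
These windows lie at chr19:4037913-4038162, chr19:4042222-4042471 and chr19:4059448-4059697 for Gstp1, Gstp2 and Gstp3, and at chr5:87254789-87255038 and chr5:87424204-87424453 for Ugt2b37 and Ugt2b38. Gstp1 and Gstp2 both hold TGAGTCAGC, and Gstp3 holds TGAGTCTGC farther from its start. The last capitals of Gstp3 run past the end of the printed stretch, and touching matches at the end of Gstp1 run together. Neither Ugt2b window holds a match. Aligned windows of Gstp1 and Gstp2 were identical at 85.5% of 282 bases and those of Ugt2b37 and Ugt2b38 at 94.8% of 286. Transcripts and array probes were not compared, and whether a probe reads both copies was not tested.

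Of the members, 44 had a promoter window, 55 windows in all, each from 250 bases before to 50 after a start. TGAGNNNGC was in 20% of the members' windows and in 17.6% of all 32851 windows of this length, a form added after sequences were seen. TGACNNNGC was in 3.64% against 12.4%, TTCNNNGAA in 3.64% against 8.3%, GCGTG in 18.2% against 32.4% and GTTAAT in 18.2% against 7.1%. A match is a description of letters in this window and not a bound site.

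Among the glucuronosyltransferases, 9 of 11 had a log2 difference above 0 with MSX on the high-fat diet (median 0.22, against 0.01 over all genes, of which 51.6% lay above 0), and 8 of 11 were below 0 for high-fat against low-fat control (median −0.10, against −0.00 over all genes, of which 48.8% lay above 0). Unadjusted, 4 (36.4%) were called higher with MSX on the high-fat diet, against 3.48% of all genes. None was called on the low-fat diet, against 8.05% of all genes. There 8 of 11 lay above 0, against 49.7% of all genes, with a median of 0.12. Both comparisons on the high-fat diet rest on the same 3 control arrays. The Ugt2b genes and Ugt2a3 form 1 block on chromosome 5, in the order Ugt2b34, Ugt2b1, Ugt2b35, Ugt2b36, Ugt2b5, Ugt2b37, Ugt2a3 and Ugt2b38.

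Ugt2b1, a male-biased liver enzyme that conjugates steroids and phenols, read 12.12, 12.05 and 11.88 in the low-fat controls, 12.15, 11.93 and 12.34 with low-fat MSX, 11.35, 11.56 and 11.65 in the high-fat controls and 11.98, 12.50 and 11.87 with high-fat MSX. The 3 high-fat controls were the lowest of the 12 arrays, and the other 3 groups overlapped. Its log2 difference was −0.49 (SE 0.17, limma adjusted p = 0.579) for the diet without extract and 0.59 (SE 0.17, adjusted p = 0.525) for MSX on the high-fat diet, a 1.51-fold difference. MSX on the low-fat diet gave 0.12 (SE 0.17), and the difference of both extract effects, 0.47 (SE 0.24), had an adjusted p of 0.955. Without high-fat MSX replicate 2 the extract difference was 0.40.

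Ugt2a3, which conjugates bile acids, had the same order: 10.49, 10.43 and 10.16 in the low-fat controls, 10.26, 10.30 and 10.65 with low-fat MSX, 9.87, 10.01 and 10.11 in the high-fat controls and 10.60, 10.48 and 10.15 with high-fat MSX. The high-fat controls lay below all other arrays. Differences were −0.37 (SE 0.15, adjusted p = 0.686, limma) for diet and 0.42 (SE 0.15, adjusted p = 0.641) for MSX on the high-fat diet. Ugt2b5 read 10.07, 10.10 and 10.38 in the high-fat controls and 10.51, 10.54 and 10.53 with high-fat MSX, which do not overlap, a difference of 0.34 (SE 0.14, adjusted p = 0.658). Its low-fat controls spanned 10.05 to 10.52, a range that takes in the high-fat controls.

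Ugt2b37 and Ugt2b38 had wider spreads between arrays and are among the 21 members below the median level, where a low level and no expression cannot be told apart. Ugt2b38 read 4.16, 2.75 and 3.58 in the low-fat controls, 4.01, 2.78 and 6.12 with low-fat MSX, 2.68, 2.41 and 2.93 in the high-fat controls and 3.50, 5.58 and 3.76 with high-fat MSX. Ugt2b37 read 3.01, 2.24 and 3.57, then 2.97, 2.10 and 4.97, then 2.81, 2.61 and 2.45, then 3.11, 4.62 and 3.44 in the same order of groups. In both genes 1 array of each MSX group, low-fat MSX replicate 3 and high-fat MSX replicate 2, was far above the rest, and the other MSX arrays lay in or near the range of the controls. The log2 difference with MSX on the high-fat diet was 1.61 (SE 0.70, 95% interval 0.11 to 3.11, limma adjusted p = 0.692) for Ugt2b38 and 1.10 (SE 0.58, adjusted p = 0.76) for Ugt2b37. Without high-fat MSX replicate 2 these were 0.96 and 0.65. Such differences start from low values in the controls and leave a wide range of sizes for both genes.

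The same 2 arrays were the highest of the 12 in 6 of 51 members, Gstp1, Gstp2, Sult1e1, Ugt2b1, Ugt2b37 and Ugt2b38. Over all genes the share was 2.01%. Both were the lowest in Sult1a1. This pair of arrays was singled out after the values were seen, and 6 members at 11.8% include copies that may share probes. The mean level of hepatocyte markers lay in the narrow range given above in all 12 arrays, while that of cholangiocyte markers was 5.38 in low-fat MSX replicate 3 and 4.71 in high-fat MSX replicate 2, against 4.68 to 4.72 in the low-fat controls. The part of cell makeup in these values was not tested.

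The remaining Ugt genes differed less. Ugt2b36 read 9.95, 10.05 and 10.03 in the low-fat controls and 10.10, 10.28 and 10.45 in the high-fat controls, which do not overlap. Its difference of 0.27 (SE 0.13, adjusted p = 0.738, limma) had the opposite sign to its neighbours. Ugt2b34, Ugt2b35, Ugt3a1 and Ugt3a2 had differences between −0.21 and 0.22 in the 3 main comparisons. Ugt8a, which makes galactosylceramide in myelin rather than conjugating drugs, was below the median level of all probe sets.

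**Figure D2:**
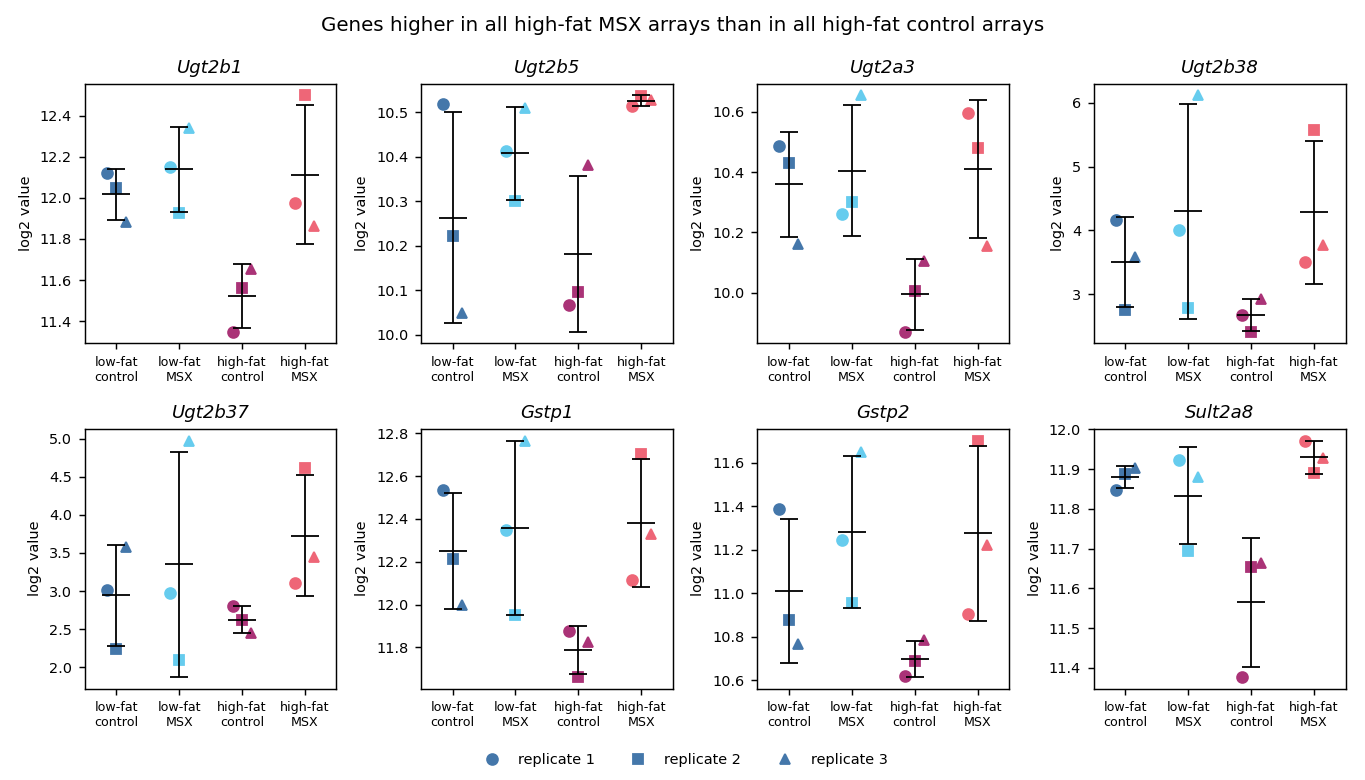
Log2 level (vertical axis) of 5 Ugt genes, Gstp1, Gstp2 and Sult2a8 in each array, 1 panel per gene with its own scale, by group (horizontal axis), with a point for each of the 3 arrays, a wide line at the mean and bars of 1 SD. The high-fat controls of Ugt2b1 and Gstp1 lie below the other groups, and 1 array of each MSX group stands highest in Ugt2b38.

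Of the 21 sulfotransferases, 2 (9.52%) were called unadjusted for diet (both lower), against 6.78% of all genes. MSX called 2 (9.52%) on the high-fat diet (both higher), against 6.99%, and 3 (14.3%) on the low-fat diet (all lower), against 8.05%. Most of the Sult2a and both Sult3a genes were low on the scale. The list of members known as female-biased in mouse liver held 6 genes. Of these, Sult2a1 lay between 1.62 and 2.45 in the 12 arrays, Sult3a1 between 1.74 and 2.28 and Sult3a2 between 1.40 and 2.11. Sult2a2, Sult2a3 and Sult1a1 had means of 2.91, 3.84 and 10.43. All mice were male, so that a sex difference was not tested. The median difference of the 6 female-biased members, which take in Sult2a2, Sult2a3 and the bright Sult1a1, was −0.09 for diet, 0.08 for MSX on the high-fat diet and −0.04 on the low-fat diet.

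Sult2a8, which sulfates bile acids in male mouse liver, was the best measured of its subfamily. It read 11.85, 11.89 and 11.90 in the low-fat controls, 11.92, 11.69 and 11.88 with low-fat MSX, 11.38, 11.65 and 11.66 in the high-fat controls and 11.97, 11.89 and 11.93 with high-fat MSX. As for Ugt2b1, the high-fat controls were the 3 lowest arrays, and the 9 others lay between 11.69 and 11.97. The difference was −0.31 (SE 0.11, limma adjusted p = 0.616) for diet and 0.36 (SE 0.11, adjusted p = 0.563) for MSX on the high-fat diet. Without high-fat control replicate 1 these were −0.22 and 0.27. On the low-fat diet MSX gave −0.05 (SE 0.11), and the difference of both extract effects, 0.41 (SE 0.16), had an adjusted p of 0.955.

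Sult5a1 read 6.17, 6.78 and 5.87 in the low-fat controls, 6.29, 6.37 and 6.41 with low-fat MSX, 5.23, 6.11 and 5.74 in the high-fat controls and 6.07, 7.07 and 6.33 with high-fat MSX. Its high-fat groups overlapped slightly, with a difference of 0.80 (SE 0.28, adjusted p = 0.639, limma) that was 0.51 without high-fat MSX replicate 2. Sult1c2 gave 0.53 (SE 0.30, adjusted p = 0.786) for diet.

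Sult1a1, the main phenol sulfotransferase, was highest in the low-fat controls at 10.80, 10.83 and 10.59. It read 10.31, 10.58 and 10.27 with low-fat MSX, 10.42, 10.43 and 10.37 in the high-fat controls and 10.42, 9.78 and 10.39 with high-fat MSX. The 3 low-fat controls lay above all 9 other arrays, though the lowest of them barely cleared low-fat MSX replicate 2. Differences were −0.35 (SE 0.16, adjusted p = 0.619, limma) for MSX on the low-fat diet and −0.33 (SE 0.16, adjusted p = 0.751) for diet, and both rest on the same 3 controls. MSX on the high-fat diet gave −0.21 (SE 0.16).

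Sult1d1, which sulfates catecholamines and phenols, read 9.53, 10.01 and 10.28 with low-fat MSX and 9.65, 9.34 and 9.25 with high-fat MSX, groups that overlap in 1 array each. In the controls it read 9.96, 10.05 and 9.96 on the low-fat diet and 9.79, 9.79 and 9.55 on the high-fat diet. The average diet difference was −0.40 (SE 0.12, adjusted p = 0.616, limma). Sult2a6 had the lowest adjusted p of the family on the low-fat diet, with 2.41, 2.07 and 2.51 in the controls and 1.80, 1.92 and 1.66 with MSX. That difference of −0.54 (SE 0.16, adjusted p = 0.359) lies low on the scale, and Sult6b1 and Sult6b2, also lower with MSX without overlap, were dim as well.

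The glutathione transferases held the members closest to the threshold, and these lay in the Gstm and Gstp clusters. All 6 Gstm genes had a difference above 0 for high-fat against low-fat control (median 0.18, 0.00 to 1.37), against 48.8% of all genes. On the low-fat diet 5 of 19 Gst genes (26.3%) were called higher with MSX at an unadjusted limma p under 0.05. None was called lower, against 4.03% of all genes in either direction. The 5 were Gstm2, Gstm3, Gstm6, Gstm7 and Gstp3. Gstm genes lie side by side on chromosome 3, in the order Gstm7, Gstm6, Gstm3, Gstm2, Gstm1 and Gstm4, and resemble each other, so that counts over them are uncertain.

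Gstm3, a mu-class enzyme induced by NRF2 activators, read 4.54, 5.07 and 5.69 in the low-fat controls, 6.51, 7.07 and 6.86 with low-fat MSX, 7.16, 5.47 and 6.79 in the high-fat controls and 5.92, 5.74 and 5.82 with high-fat MSX. Both low-fat groups were apart, while the high-fat controls spread over both, with replicate 2 below the whole high-fat MSX group. MSX on the low-fat diet gave a difference of 1.71 (SE 0.36, 95% interval 0.93 to 2.49, limma adjusted p = 0.113), a 3.27-fold difference. It was 1.43 to 2.0 as each array in turn was left out. The diet without extract gave 1.37 (SE 0.36, adjusted p = 0.422), which was 1.03 without high-fat control replicate 1 and 1.87 without replicate 2.

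On the high-fat diet the Gstm3 difference with MSX was −0.64 (SE 0.36, adjusted p = 0.778, limma), −1.15 without high-fat control replicate 2 and −0.30 without replicate 1. The difference of both extract effects, −2.36 (SE 0.51, unadjusted p = 0.000473), was the largest of the 51 members and ranked 14 of all genes by p, with an adjusted p of 0.664. A dependence of the extract effect on diet was thus not detected at 3 arrays a group.

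Gstm2 read 6.49, 7.02 and 6.42 in the low-fat controls, 7.29, 7.48 and 6.82 with low-fat MSX, 7.43, 7.34 and 7.45 in the high-fat controls and 7.40, 6.97 and 6.98 with high-fat MSX. The high-fat controls lay above all low-fat controls and close together. The diet difference was 0.77 (SE 0.19, adjusted p = 0.396, limma), MSX gave 0.56 (SE 0.19, adjusted p = 0.459) on the low-fat diet and −0.29 (SE 0.19) on the high-fat diet, and the difference of both was −0.85 (SE 0.27, adjusted p = 0.942). Both Gstm2 and Gstm3 thus had their lowest group mean in the low-fat controls, which enter both of the larger differences.

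Gstm6 and Gstm7 differed with MSX in the same direction on both diets. Gstm6 read 5.39, 5.96 and 5.77 in the low-fat controls and 6.28, 6.49 and 6.01 with low-fat MSX, groups that do not overlap, and 5.91, 5.87 and 5.99 against 6.11, 6.45 and 5.93 on the high-fat diet. Gstm7 read 8.11, 8.16 and 8.50 against 8.87, 9.12 and 8.37 on the low-fat diet and 8.28, 8.53 and 7.97 against 8.46, 8.89 and 8.62 on the high-fat diet, with overlap on both. The average extract difference was 0.40 (SE 0.12, adjusted p = 0.282, limma) for Gstm6 and 0.46 (SE 0.14, adjusted p = 0.272) for Gstm7, the lowest adjusted p of any member in that comparison. Gstm1 and Gstm4 differed by −0.14 to 0.14 in the 3 main comparisons.

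**Figure D3:**
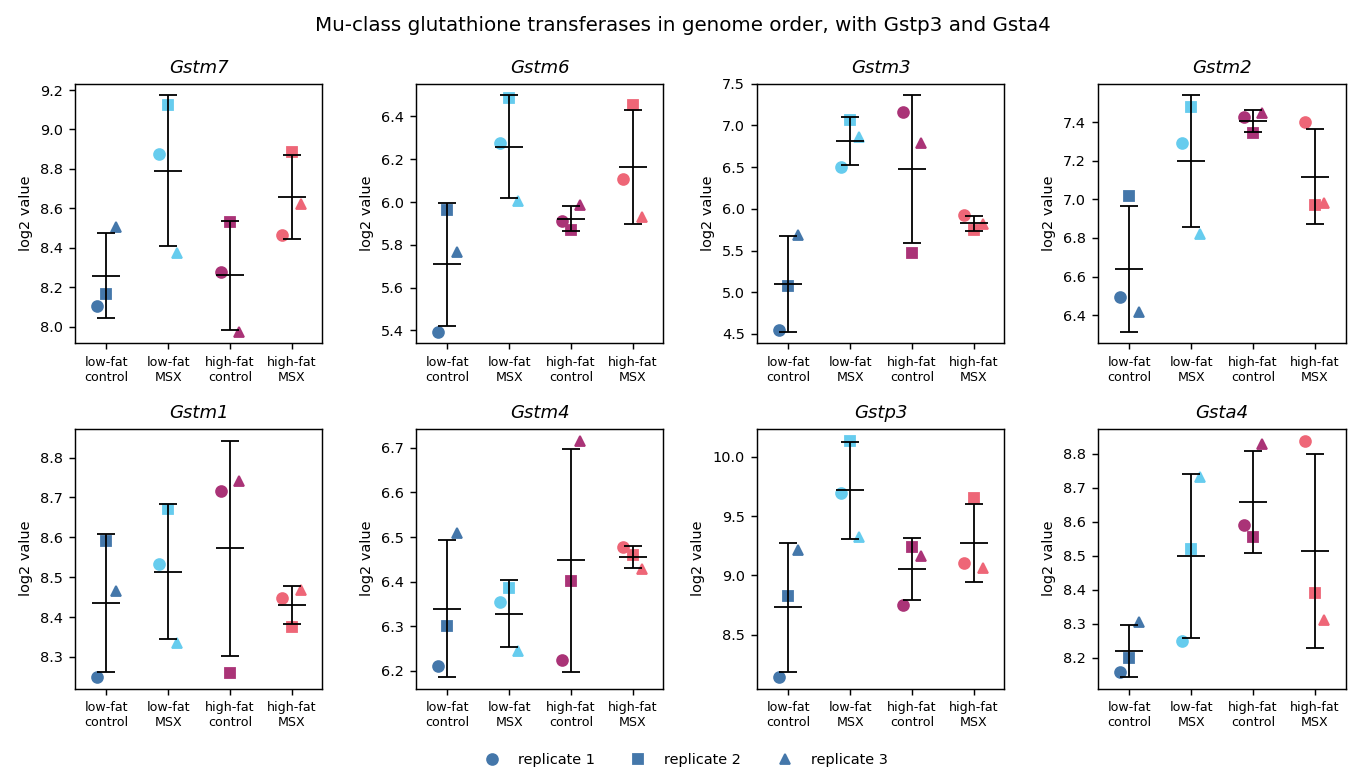
Log2 level (vertical axis) of 6 Gstm genes, Gstp3 and Gsta4 in each array, 1 panel per gene with its own scale, by group (horizontal axis), with a point for each of the 3 arrays, a wide line at the mean and bars of 1 SD. Gstm3 lies between 4.54 and 5.69 in the low-fat controls and between 6.51 and 7.07 with MSX on that diet, while the high-fat groups overlap.

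Gstp1, the abundant and male-biased pi-class enzyme of mouse hepatocytes, read 12.54, 12.21 and 12.00 in the low-fat controls, 12.35, 11.95 and 12.77 with low-fat MSX, 11.88, 11.66 and 11.83 in the high-fat controls and 12.11, 12.70 and 12.33 with high-fat MSX. The high-fat controls were again the 3 lowest arrays. Differences were −0.46 (SE 0.21, adjusted p = 0.72, limma) for diet and 0.59 (SE 0.21, adjusted p = 0.639) for MSX on the high-fat diet, and 0.11 (SE 0.21) for MSX on the low-fat diet. Gstp2, its near copy in the promoter printed above, gave −0.31 (SE 0.22), 0.58 (SE 0.22, adjusted p = 0.647) and 0.27 (SE 0.22).

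Gstp3, from the same cluster on chromosome 19, read 8.15, 8.83 and 9.22 in the low-fat controls, 9.69, 10.13 and 9.32 with low-fat MSX, 8.75, 9.24 and 9.17 in the high-fat controls and 9.10, 9.65 and 9.07 with high-fat MSX. Its low-fat groups did not overlap and its high-fat groups overlapped. MSX on the low-fat diet gave 0.98 (SE 0.27, 95% interval 0.40 to 1.57, limma adjusted p = 0.284), a 1.98-fold difference, and 0.22 (SE 0.27) on the high-fat diet. The difference between both, −0.76 (SE 0.38), had an adjusted p of 0.955.

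Of the other classes, Gsta4, which detoxifies the lipid peroxidation product hydroxynonenal, read 8.16, 8.20 and 8.31 in the low-fat controls and 8.59, 8.55 and 8.83 in the high-fat controls, which do not overlap. The difference was 0.44 (SE 0.16, adjusted p = 0.62, limma), and both MSX groups spanned the gap at 8.25 to 8.73 and 8.31 to 8.84. Gsto2, an omega-class enzyme that reduces dehydroascorbate, was lower in all 6 high-fat arrays (4.10 to 4.40) than in all 6 low-fat arrays (4.46 to 4.70). It was the only member whose 6 arrays of each diet did not overlap, against 0.325% of all genes, and the average diet difference of −0.31 (SE 0.08) had an adjusted p of 0.524. With a mean of 4.42, Gsto2 is among the 21 members below the median level, where a low level and no expression cannot be told apart. Gstk1, Gsto1, Gstt1 and Gstt2 had differences between −0.18 and 0.10 in the 3 main comparisons. Gstt3 gave −0.48 (SE 0.28, adjusted p = 0.789, limma) with MSX on the high-fat diet, and the dim Gstt4 gave −0.29 (SE 0.19, adjusted p = 0.737) on the low-fat diet.

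Groups of 3 arrays that do not overlap were counted as well. For diet without extract there were 11 members (21.6%, 4 higher and 7 lower), against 11.4% of all genes (5.29% higher and 6.1% lower), and for MSX on the low-fat diet 7 (3 higher and 4 lower), against 13.9% (7.13% and 6.73%). With extract, the diets did not overlap in 5 (3 higher and 2 lower), against 9.44% (4.68% and 4.76%). No member separated all 6 MSX from all 6 control arrays, against 1.09% of all genes. For MSX on the high-fat diet there were 10 (19.6%), all higher, against 12.2%. The 10 were Ugt2b1, Ugt2b5, Ugt2b37, Ugt2b38, Ugt2a3, Ugt3a2, Gstp1, Gstp2, Sult2a8 and Sult1c1. Of all genes, 6.7% were apart with higher values and 5.51% with lower values in that comparison.

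**Figure D4:**
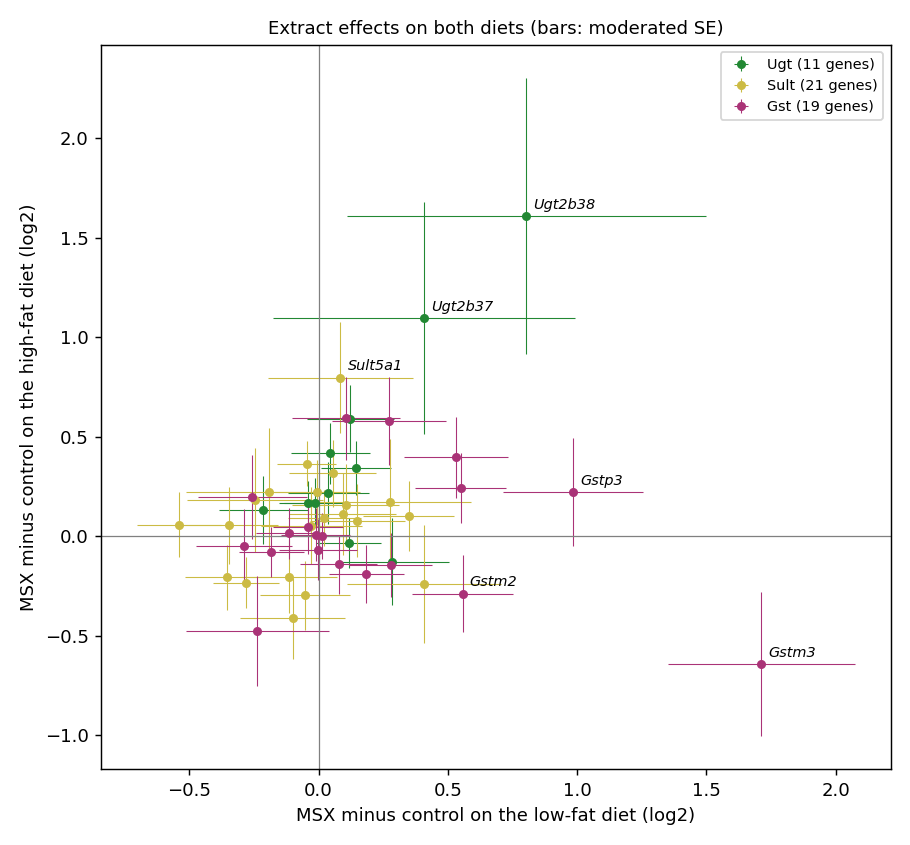
Log2 difference with MSX on the low-fat diet (horizontal axis) and on the high-fat diet (vertical axis) for the 51 members, coloured by family, with bars of 1 moderated SE. Gstm3 lies at 1.71 and −0.64, Gstp3 at 0.98 and 0.22, and Ugt2b38 at 0.80 and 1.61 (−0.10 on the horizontal axis without low-fat MSX replicate 3, and 0.96 on the vertical axis without high-fat MSX replicate 2), and none of the 51 passed the test on either axis.

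Short lists grouped members by known control. The 4 male-biased members, Ugt2b1, Ugt2b38, Gstp1 and Gstp2, were all below 0 for diet (median −0.48) and all above 0 with MSX on the high-fat diet (median 0.59) and on the low-fat diet (median 0.20). Without low-fat MSX replicate 3 the low-fat values were 0.02, −0.10, −0.10 and 0.09 in that order, with a median of −0.04, and Gstp1 was also at −0.02 when low-fat control replicate 3 was left out. None passed the test, and all 4 were called higher unadjusted with MSX on the high-fat diet, against 3.48% of all genes. The list was chosen with earlier results of these data known, Gstp1 and Gstp2 may share probes, and Ugt2b38 is dim. The count therefore only describes these 4 genes. The comparisons for diet and for MSX on the high-fat diet share the high-fat controls. The list of NRF2-responsive Gst genes shares Gstp1 and Gstp2 with the male-biased list. Its 8 measured of 10 genes had medians of 0.18 for diet, −0.14 for MSX on the high-fat diet and 0.23 on the low-fat diet. With MSX on the high-fat diet, 3 of the 8 lay above 0 and 5 below. The only 2 called unadjusted there, Gstp1 and Gstp2, were higher. Nqo1, a classical NRF2 target outside the family, differed by −0.71 (SE 0.18, adjusted p = 0.36, limma) with MSX on the high-fat diet and −0.25 (SE 0.18) on the low-fat diet.

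Lists around the supply of cosubstrates gave no call either. Of 5 genes listed for UDP-glucuronic acid, none passed the test in the 3 main comparisons. They take in Gys2, which uses UDP-glucose and does not supply UDP-glucuronic acid. Ugdh, which makes UDP-glucuronic acid, was nearest. It read 9.73, 9.63 and 9.61 in the low-fat controls, 9.58, 9.81 and 9.46 with low-fat MSX, 10.27, 10.44 and 10.62 in the high-fat controls and 9.96, 9.85 and 9.98 with high-fat MSX. All 6 high-fat arrays lay above all 6 low-fat arrays, and the high-fat controls were highest. The diet difference was 0.79 (SE 0.13, limma adjusted p = 0.0826), and MSX on the high-fat diet gave −0.51 (SE 0.13, adjusted p = 0.36). The high-fat controls, lowest for Ugt2b1, were thus highest for Ugdh, on the same arrays. Gys2, liver glycogen synthase, which uses the same UDP-glucose, differed by −0.69 (SE 0.12, adjusted p = 0.102) for diet and 0.52 (SE 0.12, adjusted p = 0.272) with MSX on the high-fat diet.

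Papss1, which makes the sulfate donor PAPS, read 4.94, 4.74 and 5.06 in the low-fat controls, 5.51, 5.40 and 5.50 with low-fat MSX, 5.88, 5.33 and 5.60 in the high-fat controls and 5.42, 5.53 and 5.25 with high-fat MSX. The low-fat controls were the 3 lowest arrays. Differences were 0.69 (SE 0.15, adjusted p = 0.256, limma) for diet and 0.56 (SE 0.15, adjusted p = 0.259) for MSX on the low-fat diet. Papss2, the other PAPS synthase on the list, went the other way for diet. Its group means were 11.18 in the low-fat controls, 11.29 with low-fat MSX, 10.76 in the high-fat controls and 11.18 with high-fat MSX. None of the 8 measured genes of sulfate supply, the 15 of glutathione synthesis and recycling, the 6 membrane-bound glutathione transferases, the 6 deconjugating enzymes or the 16 other conjugating enzymes passed the test in the 3 main comparisons or for the average extract effect. At an unadjusted limma p under 0.05, MSX on the low-fat diet called 1 of the 15 genes of glutathione synthesis and recycling higher and 4 lower. Among all genes the share was 4.03% in either direction. That list goes beyond the synthesis enzymes. The group means of the synthesis genes Gclc, Gclm and Gss were 10.42, 10.36 and 7.76 in the low-fat controls. They were 10.40, 10.45 and 7.96 with low-fat MSX.

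Among 10 exporters of conjugates, 1 passed the test, for the average extract effect. Abcb11, the canalicular pump for bile salts, rose by 0.53 on the log2 scale (SE 0.10, limma adjusted p = 0.0393). It read 10.04, 9.91 and 10.35 in the low-fat controls, 10.85, 10.84 and 10.71 with low-fat MSX, 10.22, 10.39 and 10.45 in the high-fat controls and 10.83, 10.76 and 10.53 with high-fat MSX. All 6 MSX arrays lay above all 6 control arrays. The adjusted p was 0.0774 on the low-fat diet alone and 0.647 on the high-fat diet. Leaving out 1 array at a time ended the call in 10 of 12 cases (adjusted p up to 0.114), with differences between 0.48 and 0.59, and the replicate block ended it too (adjusted p = 0.1). It held only when the array left out was replicate 3 of low-fat control or of high-fat MSX. Abcc3, which exports glucuronides to the blood, differed by −0.67 (SE 0.17, adjusted p = 0.165) on average, with −0.65 on the low-fat and −0.69 on the high-fat diet.

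Of 20 measured receptors and targets of xenobiotic signalling, none passed the test in these comparisons. Cyp3a11, the main PXR target, was nearest with an average extract difference of −0.70 (SE 0.14, limma adjusted p = 0.0592), and Srxn1, an NRF2 target, gave −0.44 (SE 0.09, adjusted p = 0.0872). Cyp1a2, an AHR target, gave 0.37 (SE 0.08, adjusted p = 0.0859), with 0.58 (SE 0.11, adjusted p = 0.143) on the high-fat diet. The dim Cyp1a1, another AHR target, had group means of 4.48 in the low-fat controls and 4.41 with low-fat MSX. On the high-fat diet these were 4.21 and 4.44.

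Markers of other liver cells varied with the groups compared. The median difference for diet without extract was 0.52 over 10 stellate cell and matrix genes, 0.36 over 6 cholangiocyte genes and 0.24 over 11 Kupffer cell genes. For MSX on the high-fat diet these medians were −0.43, −0.24 and 0.03, and on the low-fat diet 0.22, 0.19 and 0.34. Over 8 endothelial genes the medians were 0.19, 0.09 and 0.26 in these comparisons, and over 9 lymphocyte genes 0.19, −0.01 and 0.08. No erythroid marker had a probe set with 1 symbol. Mean stellate levels ran from 6.84 to 7.03 in the low-fat controls, 7.01 to 7.43 with low-fat MSX, 6.97 to 7.92 in the high-fat controls and 6.78 to 7.20 with high-fat MSX. The median difference of the 10 hepatocyte markers was −0.03 for diet, 0.02 for MSX on the high-fat diet and −0.00 on the low-fat diet. None of these marker genes passed the test in these 3 comparisons. The part of these markers in the members' differences was not tested.

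The precision of 3 arrays a group bounds what could be seen. The median half-width of a member's 95% interval was 0.377 on the log2 scale in the single comparisons (0.239 to 1.50). The interval stayed within a doubling or halving for 45 of 51 members for diet, 44 for MSX on the high-fat diet, 46 on the low-fat diet and 47 for diet with extract. These counts take in the 21 members below the median level. There a narrow interval bounds the measured value and may not bound a change in expression.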

How the data were processed

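Deposited values are the authors' log2 levels per probe set. The Transcriptome Analysis Console is named in the submitters' processing notes. The sources used here name neither its version nor how probes were summarized. Of 41345 probe sets, 23521 had 1 gene symbol in the platform annotation, and the one of highest mean was kept per gene, which left 22180 genes. Names were set against a GRCm38.p6 gene table by Entrez identifier (23328 matched, 0 changed). Values were used as deposited, and no genes were filtered.

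The test was limma 3.58.1 (R 4.3.3, lmFit with eBayes, two-sided), in a model of 4 group means over 12 arrays with 8 residual and 5.18 prior degrees of freedom. P-values were adjusted over all genes (Benjamini-Hochberg, threshold 0.05). SE is the moderated standard error. The labels call the arrays biological replicates, their number limits the precision, and with 3 arrays against 3 the smallest exact permutation p is 0.1. The procedure was tested on simulated data.

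The rule for named genes took members past the threshold, the 5 members per direction of lowest unadjusted p in the 3 main comparisons, the 3 per direction in the other 4, the short lists, and from each pathway list the genes past the threshold and the 2 of lowest p. Other members named give a range, a count or a neighbour. Members and lists were chosen with earlier results of these data known, and lists come from general knowledge. Promoters from RefSeq were matched by symbol. Alternatives covered a replicate block, fits to the compared groups alone, quantile and median scaling, the mean over probe sets, a filter on dim genes, moderation with a trend, array weights and leaving out each array.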

Additional observations from a re-analysis of the deposited data

How the results depend on the processing

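The count of members past the threshold was 0 in all 7 comparisons under all 113 alternatives run. The 55 gene values followed up were those of lowest unadjusted p per direction, and Abcb11, a choice that favours a stable sign. Some values outside this choice did reverse. Without low-fat MSX replicate 3, MSX on the low-fat diet gave −0.10 for Ugt2b38, −0.41 for Ugt2b37 and −0.10 for Gstp1, all above 0 with all arrays. For the 55 values with 852 alternatives, 0 reversed and 841 kept direction and side of the threshold. The other 11 are all of Abcb11, 10 of them without 1 array. Its adjusted p (limma) ranged from 0.00552 to 0.114. The lowest adjusted p of any member over the alternatives ranged from 0.064 to 0.352 for MSX on the low-fat diet, 0.0571 to 0.677 for diet without extract and 0.246 to 0.827 for MSX on the high-fat diet, and unadjusted members numbered 5 to 9, 5 to 12 and 3 to 11. The filter on dim genes kept 30 members.

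With the replicate number as a block, 0 members passed in any comparison and the adjusted p of Abcb11 was 0.1. Residuals of 18 same-numbered pairs of arrays correlated between −0.126 and 0.112, over 0.1 in 2. Whether same-numbered arrays share a batch cannot be told from these values. The scanner signal over background is not given in the sources used, so that detection of dim members could not be judged.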
